A study of Mus musculus with 2 samples.

Results

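Krt5, Krt14, Krt15 and Krt17 are 4 keratin genes of the basal layer of stratified epithelium, selected by name from the 32285 genes counted in single cells of the embryonic mouse esophagus. The study compared 2 libraries of C57BL/6 littermates at E18.5, shortly before birth. The wild-type library has the genotype p63-CreER, so the control carries the p63-CreER allele as well, and the p63-KO library has the genotype p63-CreER/p63-CreER. In both, the esophagus was stripped of its muscle layer, the epithelium was released with dispase and trypsin, and cells were captured with a 10x Genomics 3' kit. Each group is 1 library, so no difference between the groups has a replicate check, every interval below covers counting error only, and no p-value is given.

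Keratins form the intermediate filaments of epithelial cells, and a filament is built from obligate pairs of a type I and a type II chain. In stratified epithelium the basal layer is known for the pair of type II Krt5 with type I Krt14, and suprabasal cells of the esophagus replace it with Krt4 and Krt13. Krt15 is a further type I keratin of basal cells and of hair follicle stem cells, and Krt17 is a type I keratin of embryonic epithelium, appendages and wounded skin. The transcription factor p63, encoded by Trp63, is a master regulator of stratified epithelium, and Krt5 and Krt14 are textbook targets of it.

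The 4 genes lie in both keratin clusters of the genome, on the minus strand in every case (build mm10, GENCODE M21). Krt5 (ENSMUSG00000061527) is in the type II cluster on chromosome 15, from 101707070 to 101712898, with 9 exons. Krt15 (ENSMUSG00000054146; chromosome 11, 100131758 to 100135928), Krt14 (ENSMUSG00000045545; 100203162 to 100207548) and Krt17 (ENSMUSG00000035557; 100256217 to 100261029) are in the type I cluster, each with 8 exons. The gap from Krt15 to Krt14 is 67233 bases and that from Krt14 to Krt17 is 48668 bases. The coding sequences of Krt14 and Krt17 were 84.1% identical over the aligned bases, the highest value among the 6 pairs, against 65.2% for Krt5 and Krt14. Of the 451 stretches of 50 bases in the last 500 bases of the transcript, where 3' reads fall, 43 of Krt14 also occurred in a transcript of Krt16 or Krt17, and 43 of Krt17 in one of Krt14 or Krt16. None of those of Krt5 or Krt15 occurred in another gene, so Krt14 and Krt17 were separable over most of this stretch but not all of it.

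The wild-type library held 6034 barcodes and 76472445 UMIs (unique molecular identifiers, 1 per captured transcript), and the p63-KO library 2821 barcodes and 86504624 UMIs. A barcode was kept as a cell from 500 genes and 1000 UMIs upward, if mitochondrial genes gave no more than 10% of its UMIs, and probable doublets were removed. Epithelial-like cells, named from epithelial markers without keratins, numbered 5367 in wild type (median 11050 UMIs) and 1686 in p63-KO (median 25333 UMIs). The p63-KO library also held 509 fibroblast-like cells, against 10 in wild type. After the filter, 5 barcodes occurred in both libraries. Trp63, the targeted gene, had 302 CPM (UMIs per 1000000 UMIs of the same cells) in wild-type and 118 CPM in p63-KO epithelial-like cells. Its transcript was thus 2.56-fold lower (95% interval 2.49 to 2.62) but present in the library labelled p63-KO. The count tables do not show which exons the reads came from, so this is no check of the knockout that the label names. The wild-type library it is compared with also carries the p63-CreER allele.

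In the library labelled p63-KO, Krt5, Krt14 and Krt17 were all but missing from epithelial-like cells, whereas Krt15 was still the most abundant keratin there. All 4 genes were lower than in wild type by 2-fold or more, a fold that 8.80% of the 11768 genes with at least 5 CPM in either library also reached in that direction, and 15.0% in the other. The median log2 ratio over these genes was -0.02. CPM from a 3' kit counts transcripts and is not divided by length. Levels of different genes are set side by side on that basis only, since differences between genes in capture or mapping were not measured.

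Krt5, the type II partner in the basal pair, had 52387 UMIs in wild type (765 CPM) and 17 UMIs in p63-KO (0.234 CPM, 95% interval 0.136 to 0.375). This is a 3271-fold difference, with an interval from 2043 to 5615, and Krt5 had the lowest log2 ratio of all 11768 genes. Krt14, its type I partner, had 20387 UMIs (298 CPM) in wild type and 67 UMIs (0.922 CPM) in p63-KO, which is 323-fold lower (254 to 417) and the second lowest log2 ratio. The log2 ratios, on CPM plus 1, were -9.28 for Krt5 and -7.28 for Krt14. On this scale the basal pair had the lowest ratios of all genes measured. By plain fold this order need not hold: Bnc1, picked after its values were seen, had 393 and 1 UMIs, a ratio of 417 with an interval from 74.4 to 16518.

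Krt17 had 19369 UMIs (283 CPM) in wild type and 401 UMIs (5.52 CPM) in p63-KO, a 51.3-fold difference (46.4 to 56.7) at rank 16 from the lowest log2 ratio. Krt15 had 718196 UMIs (10489 CPM) in wild type and 354481 UMIs (4878 CPM) in p63-KO, a 2.15-fold difference (2.14 to 2.16) at rank 796 from the lowest. Even so, Krt15 in p63-KO stood above the wild-type levels of Krt5, Krt14 and Krt17.

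The keratin genes that lie around the 4 differed widely too. On chromosome 11, in the order of the genes, the log2 ratio of p63-KO to wild type was -1.46 for Krt13, -1.10 for Krt15, 0.08 for Krt19, -7.28 for Krt14 and -5.44 for Krt17. Krt19, a type I keratin of simple epithelium that lies between Krt15 and Krt14, had 959 CPM in wild type and 1015 CPM in p63-KO. Krt16, between Krt14 and Krt17, was low, with 93 and 41 UMIs (1.36 and 0.564 CPM), and Krt9 had 4 and 3 UMIs, too few to compare. In the type II cluster, Krt6a, a keratin of wounded and mucosal epithelium and the next expressed gene to Krt5, had 878 and 15.1 CPM (log2 ratio -5.77), and Krt6b had 10.0 and 0.853 CPM. Krt75 was at 3.62 and 0.537 CPM, and Krt71, Krt72 and Krt73 had 0 UMIs in both libraries. On chromosome 11, Krt19 thus had nearly equal levels in both libraries, while Krt15 and Krt14 on either side of it were lower in p63-KO.

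**Figure D1:**
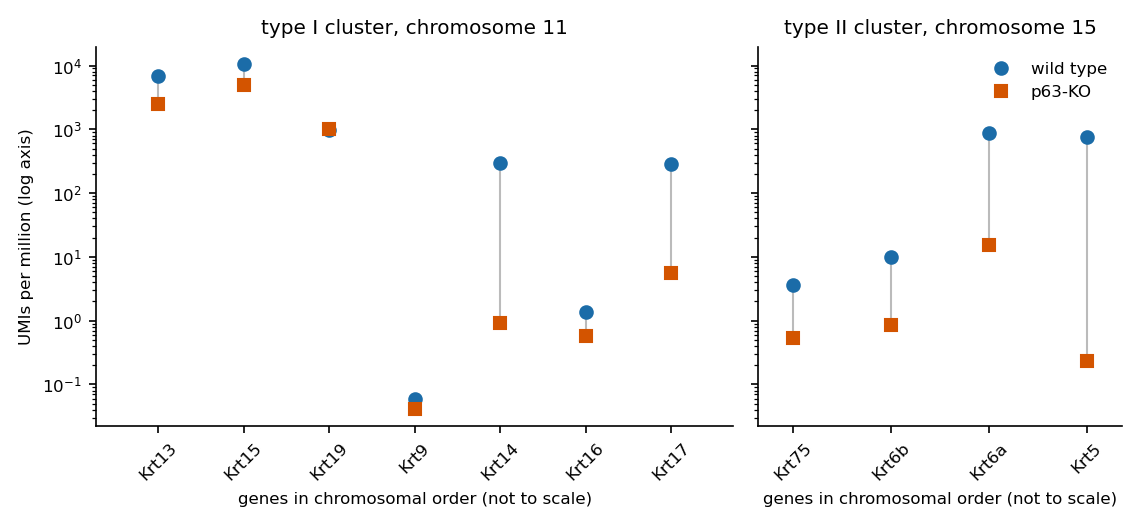
Levels of keratin genes in chromosomal order in epithelial-like cells of the wild-type (circles) and p63-KO (squares) library, in CPM on a log axis, with no replicates. Krt14 and Krt17 are separated by more than a factor of 50 between the libraries, whereas Krt19, between Krt15 and Krt14, has 959 and 1015 CPM.

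The 250 bases before the start of Krt5, the member with the largest difference, are shown because they hold a match to the p53 family half-site, the 10-base motif that p53, p63 and p73 share. The sequence is that of RefSeq for build GRCm38.p6, on the minus strand, chr15:101712906-101713155, read 5′ to 3′, with the match in capitals.

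Krt5 upstream: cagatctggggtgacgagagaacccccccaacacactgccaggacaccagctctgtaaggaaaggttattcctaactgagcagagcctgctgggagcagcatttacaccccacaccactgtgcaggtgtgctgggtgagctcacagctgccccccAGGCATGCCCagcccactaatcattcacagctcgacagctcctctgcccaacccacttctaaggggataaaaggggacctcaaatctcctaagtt

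The match ran from 95 to 86 bases before the RefSeq start, and 7.13% of the 32851 RefSeq windows of the same length held at least 1 such match. The motif equals its own reverse complement, so 1 scan covers both strands. The AP-2 motif GCCNNNGGC, likewise its own reverse complement, was not found in this window and occurred in 13.7% of all windows. A match describes letters only, and no binding was measured here. The RefSeq window listed for Krt14 belongs to a start 1518 bases inside the gene, held neither motif and is not printed, and windows of Krt15 and Krt17 were not used here.

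Within the wild-type epithelium, Krt5, Krt14 and Krt17 were high in basal-like and cycling-like cells and low in superficial-like cells, while Krt15 was highest in superficial-like cells. Layers were subclusters made without any keratin gene and named from markers that hold no keratin, so the keratins neither made nor named them. From basal-like to superficial-like cells, 3 of the 4 genes were at least 2-fold lower, as were 32.5% of the 11150 genes measured in this comparison, and none was at least 2-fold higher, against 13.6%. The median log2 ratio over all of these genes was -0.52.

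Krt5 had 1168 CPM in basal-like subcluster 5 and 1033 CPM in basal-like subcluster 1. Cells in S phase (999 CPM) and the larger cycling-like subclusters 6 (980 CPM) and 7 (1137 CPM) were in the same range. Unnamed subcluster 4 was slightly lower, at 904 CPM. Suprabasal-like subclusters 2 and 9 had 412 and 364 CPM, and superficial-like subcluster 8 had 205 CPM. Over both basal-like subclusters together, Krt5 was 5.20-fold (4.95 to 5.46) above superficial-like cells (1065 against 205 CPM).

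Krt14 differed more steeply between the layers. It had 838 CPM in basal-like subcluster 5, 444 CPM in basal-like subcluster 1, and between 425 and 472 CPM in S phase-like and cycling-like subclusters 3, 6 and 7. Unnamed subcluster 4, led by Mctp1, Notch1, Notch3 and Krtdap, had 228 CPM. Suprabasal-like subclusters 2 and 9 had 27.2 and 24.5 CPM, and superficial-like cells had 13.9 CPM, which is 38.7-fold (32.2 to 46.9) under basal-like cells. The order of Krt14 thus followed the layers from basal to superficial.

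Krt17 had another order. Its highest levels were 551 CPM in cycling-like subcluster 7, 502 CPM in unnamed subcluster 4 and 431 CPM in basal-like subcluster 1, and basal-like subcluster 5, where Krt14 was highest, had only 158 CPM. The same level, 158 CPM, was found in suprabasal-like subcluster 2. Suprabasal-like subcluster 9 had 62.6 CPM and superficial-like cells 18.6 CPM, 19.7-fold (16.8 to 23.3) under basal-like cells. In suprabasal-like subcluster 2 the Krt17 counts were uneven between cells: after each cell was thinned to 2000 UMIs, the variance was 3.35 times the mean, against 1.29 in basal-like subcluster 1.

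Krt15 was the most abundant of the 4 in every wild-type subcluster. It lay between 8675 and 11098 CPM in the basal-like subclusters, the S phase-like subcluster and cycling-like subclusters 6 and 7. It was 8705 CPM in unnamed subcluster 4, 9448 and 11848 CPM in suprabasal-like subclusters 2 and 9, and 15400 CPM in superficial-like cells. The superficial-like level was 1.50-fold (1.49 to 1.51) above the basal-like level of 10281 CPM. Over the same cells Krt13, the suprabasal type I keratin, was 16.3-fold higher, 19330 against 1187 CPM. By level, then, the name basal keratin did not set Krt15 apart by layer in these cells. The smallest subclusters, ciliated-like subcluster 10 (32 cells, 4301 CPM) and cycling-like subcluster 11 (27 cells, 6902 CPM), had the lowest Krt15. A further 141 wild-type cells of low depth (median 2779 UMIs) that were left out of the epithelial-like cells had 14215 CPM of Krt15, 605 of Krt17, 549 of Krt14 and 485 of Krt5.

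**Figure D2:**
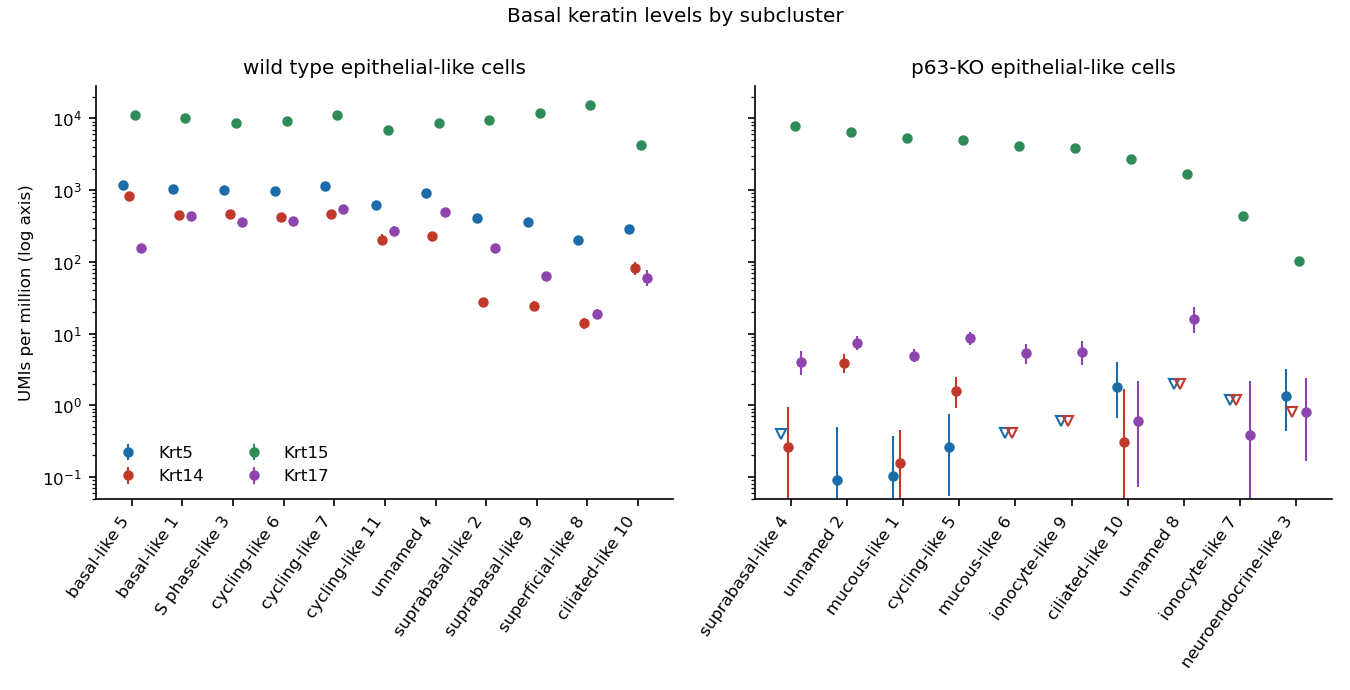
Levels of the 4 keratins in each epithelial-like subcluster of the wild-type (left) and p63-KO (right) library, in CPM on a log axis. Points carry exact 95% Poisson intervals for counting error, and open triangles mark 0 UMIs at the level 3 UMIs would give. Krt15 is the highest of the 4 in every subcluster of both libraries, and the other 3 are below 16 CPM throughout p63-KO.

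A similar order appeared along a continuous axis. Its score used the same marker lists that named the layers, so it is no independent check of them. Wild-type cells were split into 5 ranges of equal cell number along a score, the mean of basal markers minus that of suprabasal and superficial markers, with no keratin in it. From the most basal to the most differentiated range, Krt5 went through 1085, 1030, 1012, 737 and 304 CPM. Krt14 went through 574, 470, 422, 219 and 18.53 CPM, and so was lower in each range than in the one before. Krt17 went through 338, 393, 415, 356 and 65.4 CPM, with its highest value in the middle range. Krt15 stayed between 8377 and 9951 CPM in the first 4 ranges and reached 12893 CPM in the last. The ranges are cuts of a continuous score and not cell types: between 121 and 850 of the 5367 cells lay within 0.1 standard deviations of each cut.

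**Figure D3:**
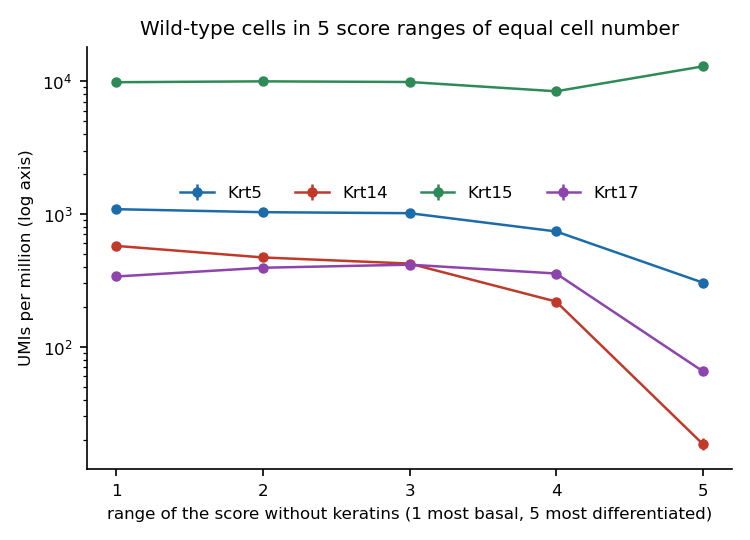
Levels of the 4 keratins in wild-type epithelial-like cells divided into 5 ranges of equal cell number along a score without keratins, in CPM on a log axis, with exact 95% Poisson intervals mostly smaller than the points. Krt14 is lower in each range than in the one before, Krt17 is highest in the middle range, and Krt15 is highest in the last.

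The basal-like subclusters differed in Krt14 and Krt17 in opposite directions. Subcluster 5 (465 cells) is led by Zbtb16, Tenm2, Tnfrsf19 and Edaradd, and subcluster 1 (1482 cells) by Nkain3 and Hs3st5. Krt14 was 1.89-fold (1.81 to 1.97) higher in subcluster 5 and Krt17 was 2.73-fold (2.52 to 2.95) lower there. Krt5 and Krt15 were 1.13-fold and 1.10-fold higher. Krt17 was thus the 1 of the 4 that was at least 2-fold lower in subcluster 5, as were 1.74% of the 10733 genes measured. None of the 4 was at least 2-fold higher, against 2.23% of those genes. The median depth of both was alike, 9787 UMIs in subcluster 5 and 9370.5 UMIs in subcluster 1.

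Shares of cells were counted after each cell was thinned to 2000 UMIs, since depth differed between the libraries, and intervals are exact Clopper-Pearson limits. In wild type, a Krt15 UMI was found in 99.8% of 5282 cells, a Krt5 UMI in 72.2%, a Krt17 UMI in 38.7% and a Krt14 UMI in 38.0%. Without thinning the shares were 99.98%, 94.0%, 71.7% and 67.0%. In p63-KO, Krt15 was found in 76.5% of 1663 thinned cells, Krt17 in 0.902%, Krt14 in 0.120% and Krt5 in 0.0601%. Without thinning these were 89.5%, 10.8%, 1.42% and 0.830%. Krt15 was therefore detected in most epithelial-like cells of both libraries, and the other 3 in few p63-KO cells.

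As a level of free RNA, thinned fibroblast-like cells of the p63-KO library, which should not express keratins, had a Krt15 UMI in 10.9% of 506 cells (median depth before thinning 10824 UMIs). They had no UMI of Krt5, Krt14 or Krt17, for which the limit of 3 counts is a share of 0.593% and the exact upper limit 0.726%. The wild-type library held only 10 fibroblast-like cells, with 9 Krt15 UMIs among them, so free RNA of the other 3 keratins could not be bounded usefully in that library.

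In wild type the shares of cells with Krt5, Krt14 and Krt17 were lower in suprabasal-like and superficial-like than in basal-like cells, each in its own order. Krt14 was found in 64.1% of cells of basal-like subcluster 5, 52.3% of subcluster 1, 28.4% of unnamed subcluster 4, 2.86% of suprabasal-like and 3.79% of superficial-like cells. Krt17 was found in 27.7%, 52.9%, 47.9%, 13.4% and 2.71% of the same cells. Krt5 differed less, with 85.6% of both basal-like subclusters, 45.8% of suprabasal-like and 26.3% of superficial-like cells. How much of the low shares was free RNA was not tested.

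Co-detection of the pair that forms the basal filament was frequent. Among wild-type cells with a Krt5 UMI, 45.1% also had a Krt14 UMI, against 19.7% of cells without a Krt5 UMI. Within the basal-like cells alone the shares were 57.2% (54.7 to 59.6) and 43.3% (37.3 to 49.4), so the gap was narrower within the layer than over all layers. In suprabasal-like cells they were 2.78% and 2.93%, with overlapping intervals. Krt14 and Krt17 were found together in 18.7% of all cells.

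Krt17 was found in 49.1% of wild-type cells with a Krt14 UMI and in 32.4% of those without. Within the basal-like subclusters the shares were closer or in the opposite order. In subcluster 1 the shares were 54.2% (50.5 to 57.8) and 51.6% (47.8 to 55.4), and in subcluster 5 they were 24.3% (19.5 to 29.6) with Krt14 and 33.7% (26.6 to 41.5) without. The difference between cells with and without Krt14 was not tested, since cells of 1 library are not replicates.

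**Figure D4:**
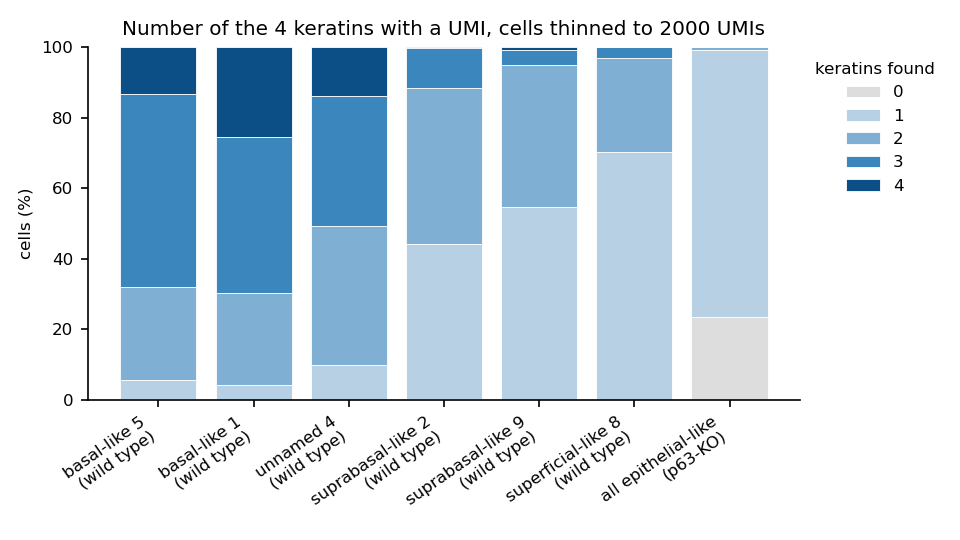
Share of cells with 0 to 4 of the keratins Krt5, Krt14, Krt15 and Krt17 found, in wild-type subclusters from basal-like to superficial-like and in all p63-KO epithelial-like cells, each cell thinned to 2000 UMIs. All 4 are found in 25.6% of cells of basal-like subcluster 1 and in none of the superficial-like cells, and 75.7% of p63-KO cells have 1.

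All 4 keratins were found in 22.6% of basal-like cells, 23.7% of cycling-like and S phase-like cells, 13.9% of unnamed subcluster 4, 0.530% of suprabasal-like and 0 of 369 superficial-like cells. Superficial-like cells had 1 keratin, which was Krt15, in 70.2%, and Krt15 with Krt5 alone in 23.3%. Over p63-KO, 75.7% of cells had 1 of the 4, 23.3% had none, 0.962% had 2 and no cell had 3 or 4.

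The share of keratin RNA that the 4 genes make up also moved with the layers. In basal-like cells keratin UMIs were 1.55% of all UMIs, and 79.0% of them came from the 4 genes. In superficial-like cells keratins were 5.71% of all UMIs and the 4 genes made up 27.4% of them. Krt15 alone was 78.5% of type I keratin UMIs in basal-like and 40.8% in superficial-like cells. Krt5 was 44.1% of type II UMIs in basal-like cells but 1.06% in superficial-like cells, where Krt4 and other type II genes took its place. Type I UMIs outnumbered type II UMIs 5.42 to 1 in basal-like cells and 1.95 to 1 in superficial-like cells. In p63-KO Krt15 was 51.1% of type I UMIs, whereas Krt5 was 0.00594% of type II UMIs.

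Among p63-KO cells, Krt15 was high in suprabasal-like, mucous-like and cycling-like cells and low in neuroendocrine-like cells. It had 7873 CPM in suprabasal-like subcluster 4 (Psca, Ecm1, Calml3, Ly6d), 6561 CPM in unnamed subcluster 2 (Cryab, Sema3a), 5382 and 4066 CPM in mucous-like subclusters 1 and 6, and 4969 CPM in cycling-like subcluster 5. Ionocyte-like subcluster 9 had 3832 CPM and ciliated-like subcluster 10 had 2755 CPM. Cells of subcluster 9 had a median depth of 68252 UMIs, against 25559 UMIs in ionocyte-like subcluster 7. The mean standardized level of mucous markers was 0.54 in subcluster 9 and -1.53 in subcluster 7. Whether subcluster 9 still holds doublets of ionocyte-like and other cells was not tested. Krt15 was lower in unnamed subcluster 8 (Cnpy1, Gzma), with 1657 CPM, ionocyte-like subcluster 7, with 439 CPM, and neuroendocrine-like subcluster 3, with 104 CPM. The last of these was close to the 73.7 CPM of fibroblast-like cells, which stands for free RNA. Both Krt15 and Krt17 differed at least 2-fold between their highest and lowest p63-KO subclusters, as did 76.5% of the 13872 genes measured, so nothing is read from that count.

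The name of p63-KO suprabasal-like subcluster 4 is uncertain. Its mean standardized level was 1.08 for suprabasal and 1.43 for superficial markers, but only 2 superficial markers were found in 25% or more of its cells, under the 3 a name needed. Psca, Ecm1 and Ltf led both it and wild-type superficial-like subcluster 8, so its Krt15 level is not compared with a wild-type layer. Without the neuroendocrine-like, ionocyte-like and ciliated-like cells, p63-KO Krt15 was 5584 CPM. The log2 ratio to wild type, with its ciliated-like cells also left out, was -0.92, which is less than 2-fold lower. These cells were left out after the data had been seen. Mucous-like, ionocyte-like and neuroendocrine-like names were given to p63-KO subclusters and to none of wild type, and the basal name was barred in p63-KO by rule. The part of cell make-up in the Krt15 ratio was not tested.

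Krt15 was spread over most p63-KO cells rather than held by a few. In thinned suprabasal-like cells of p63-KO the median was 17 Krt15 UMIs of 2000, and 10% of cells had 10.4 or fewer, while in unnamed subcluster 2 the median was 14 and in mucous-like subcluster 1 it was 11. In ionocyte-like subcluster 9 the median was 6 with 13.7% of cells at 0, and in unnamed subcluster 8 it was 0, with 55.6% of cells at 0 and 8.64% at 10 or more. After thinning, cells with and cells without a detected Krt15 UMI thus both occurred in that subcluster. Its median depth was 16880.5 UMIs, so a 0 among 2000 UMIs does not show that a cell lacked Krt15.

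Over the 10 p63-KO subclusters, Krt15 followed Trp63 closely. Trp63 ran from 3.53 CPM in neuroendocrine-like cells to 171 CPM in unnamed subcluster 2, and Pearson's r of log2(CPM + 1) with Krt15 was 0.99 across these 10 points, which all come from 1 library and are no replicates. Over the 11 wild-type subclusters it was -0.22. The closeness in p63-KO was not particular to Trp63 (0.990): r with Krt15 was 0.995 for Avpi1, 0.994 for Krt19 and 0.949 for Krt13. In p63-KO, 96.0% (93.0 to 98.0) of the 276 thinned cells with a Trp63 UMI had a Krt15 UMI, against 72.7% (70.3 to 75.0) of those without. Krt13 was found in 80.3% of p63-KO cells with Krt15 and 6.67% of those without, and Agr2, a gene of mucous cells, in 58.6% and 6.15%. Krt18, a simple keratin, was found in 86.8% and 53.8%. These shares pool all p63-KO subclusters, and detection of Krt15 differed between them. No Krt15 UMI was found in 0.304% of thinned cells of mucous-like subcluster 1 and in 91.1% of neuroendocrine-like subcluster 3. How much of each gap lay between subclusters was not tested.

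**Figure D5:**
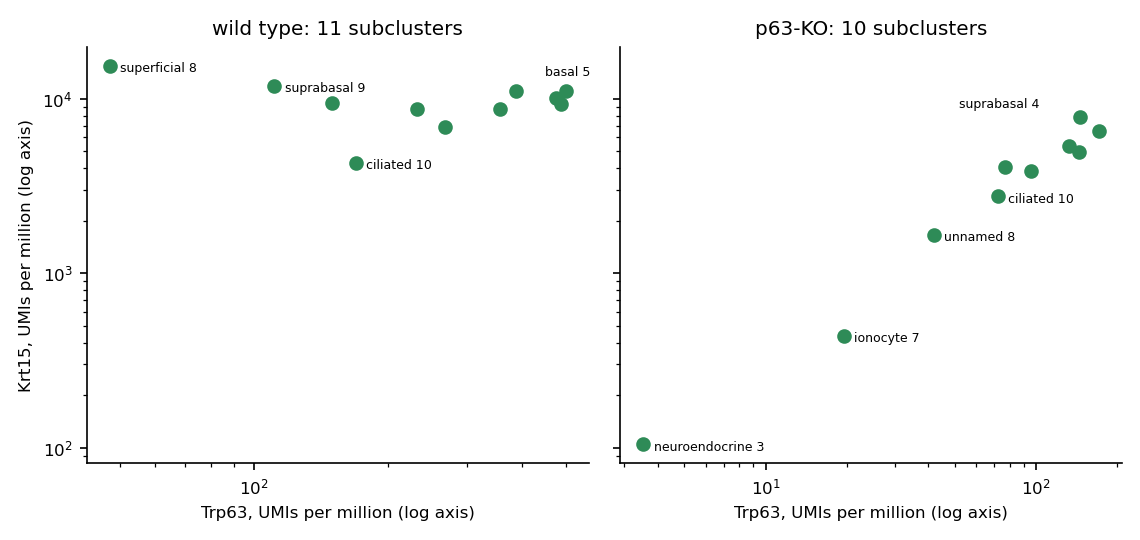
Level of Krt15 against that of Trp63 in the wild-type (left, 11 points) and p63-KO (right, 10 points) epithelial-like subclusters, in CPM on log axes. In p63-KO the neuroendocrine-like point is lowest in both, while the suprabasal-like point has the highest Krt15 and an unnamed point the highest Trp63. In wild type the superficial-like point has the highest Krt15 and the lowest Trp63.

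Of the other 3 keratins in p63-KO, Krt14 was held by few cells. Of the 67 Krt14 UMIs, held by 24 of 1686 cells, 43 were in unnamed subcluster 2 and 18 in cycling-like subcluster 5, and 1 cell held 18. The top 5 cells held 42. Krt5 had 17 UMIs in 14 cells, of which 6 were in 6 of the 57 ciliated-like cells, and 5 in 2 neuroendocrine-like cells. Krt17 had 401 UMIs in 182 cells, with 8.60 CPM in cycling-like subcluster 5, 7.36 CPM in unnamed subcluster 2 and 15.7 CPM in unnamed subcluster 8, where 14 of 24 UMIs came from 1 cell. No UMI of these 3 genes was in a barcode that both libraries share, and none was in a fibroblast-like cell. In a clustering of both libraries together, 4 p63-KO epithelial-like cells lay in 1 cluster with over 10 times as many wild-type cells (343). It was led by Psca, 2300002M23Rik and Cnfn. The 4 cells held no Krt5 or Krt14 UMI and 1 Krt17 UMI. Wild-type superficial-like subcluster 8, also led by Psca, had 205 CPM of Krt5, 13.9 of Krt14 and 18.6 of Krt17. It held 1711 Krt5, 116 Krt14 and 155 Krt17 UMIs beside 128584 of Krt15, and the 4 p63-KO cells held 801 Krt15 UMIs. Whether the 4 cells differ from such wild-type cells was not tested.

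Of the other keratins of stratified epithelium, 10 were measured. In p63-KO, 6 of them were lower by 2-fold or more and none was higher by as much, and their median log2 ratio was -1.48. Over all 11768 genes measured, 8.80% were lower and 15.0% higher by that fold and the median was -0.02, which is also the background of the next 3 lists. Krt4 (4662 and 1414 CPM) and Krt13 (6933 and 2511 CPM) were 3.30-fold and 2.76-fold lower. Krt23 (15.6 and 15.5 CPM) and Krt36 (2.69 and 5.19 CPM) had the highest ratios in the list. Of the 5 simple keratins, none was 2-fold lower (8.80% of all genes) and 3 were at least 2-fold higher (15.0% of all genes), among them Krt18 (151 and 1048 CPM) and Krt8 (533 and 1338 CPM), the pair of simple epithelium, and Krt20. Krt7 was 1.85-fold higher (617 and 1139 CPM).

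The list of hemidesmosome and desmosome genes, which tie keratin filaments to the cell surface, with cytolinkers and other keratin-binding proteins, had 21 measured genes. Of these, 14 were lower by 2-fold or more (8.80% of all genes), 2 were higher by as much (15.0% of all genes), and the median log2 ratio was -1.30. Col17a1, a hemidesmosome collagen, had 232 and 2.12 CPM and Dsg3, a desmosomal cadherin, 353 and 16.4 CPM. Perp (1146 and 176 CPM) and Dsp (947 and 385 CPM), both desmosome genes, were 6.52-fold and 2.46-fold lower. Itga6 and Pkp2 were the 2 that were higher, at 2.54-fold and 9.41-fold. Of 27 measured transcription factors of basal and stratified epithelium, 11 were at least 2-fold lower (8.80% of all genes) and none was higher (15.0% of all genes), with a median of -0.54. Tfap2a, an AP-2 factor, had 13.7 and 0.0688 CPM and Foxe1 163 and 8.92 CPM, while Klf5 (663 and 771 CPM), Ovol2 (18.0 and 25.1 CPM) and Ehf (209 and 414 CPM) were not 2-fold different.

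The genes most like each keratin across the 11 wild-type subclusters were ranked by Pearson's r of log2(CPM + 1) among 5753 genes. For Krt14 they were Wnt10a (0.99), Agrn (0.99), Dgkd (0.99), Itgb1 (0.99) and Antxr1 (0.99). For Krt5 they were Fkbp3 (0.98), Npm1 (0.98), Ext2 (0.98), Wdr12 (0.98) and Lama5 (0.97). For Krt17 they were Eprs (0.99), Sdha (0.97), Cyfip1 (0.97), Abce1 (0.97) and Bdh1 (0.97), and none of the 4 keratins shared a gene in its list of 5. For Krt15 the values were lower, 0.92 for Ube2d1, 0.88 for Dhrs1 and Brk1, and 0.86 for Nfu1 and Pdia3. Among the keratins themselves, r was 0.93 for Krt5 with Krt14, 0.90 for Krt5 with Krt17 and 0.79 for Krt14 with Krt17, while Krt15 had 0.05, -0.17 and -0.15 with Krt5, Krt14 and Krt17. Across the 10 p63-KO subclusters Krt15 was most like Avpi1, Krt19, Trim16, Capg and S100a16 (0.99 each). For Krt17 in p63-KO the highest values, 0.94 for Lta4h, 0.93 for Ddx21 and 0.91 for Lars, Hpcal1 and Kcnn4, rest on levels of 16 CPM and less. Subclusters of 1 library share their depth and their free RNA, and these values describe that library.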

How the data were processed

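Single cells of mouse esophageal epithelium were profiled in 2 libraries, 1 wild type and 1 p63-KO. The deposited files hold raw counts: the authors' table of UMI counts per gene and cell. Reads were processed with Cell Ranger 7.1.0 on mm10, per the submitters' processing notes. Libraries came from a 10x Genomics 3' kit, per the labels' protocols. How many embryos each library pools is not given in the sources used here.

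Cells were clustered (numpy 2.4.6, scikit-learn 1.9.0, leidenalg 0.10.2) on 2000 variable genes, 30 principal components and 20 neighbours with all Krt genes left out. The epithelial-like cells were subclustered by library at resolution 0.6. A subcluster took a name when 3 or more markers of a list were each detected in 25% or more of the cells, with the highest mean standardized level, 0.5 or above. Cell-state names, other than basal, suprabasal and superficial, also needed a marker among the 10 leading genes. The basal name was barred in p63-KO, since its list holds the targeted gene, and unnamed subcluster 2 there had a mean of 0.59 for the 6 of 8 basal markers measured. The highest mean of that subcluster was 1.04, for S phase markers. None of them was among its 10 leading genes, so it stayed unnamed. These naming rules were set after the clusters were seen. Simulated doublets were scored and 268 wild-type and 47 p63-KO cells removed.

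UMIs were summed per group as CPM with exact Poisson 95% intervals, folds had exact conditional binomial intervals, and log2 ratios used CPM plus 1. A count of 0 was bounded at 3 counts. The fold and thinning code was tested on simulated data. Named were the 4 keratins, Trp63, list members with at least 500 CPM or the 2 highest and 2 lowest ratios, the 5 genes most like each keratin, and the neighbouring keratins. The members, lists and rules were chosen with earlier results of these data known.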

Additional observations from a re-analysis of the deposited data

How the results depend on the processing

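Of 86 values under other settings, 35 moved by less than the counting interval and 51 moved by more. No log2 ratio of p63-KO to wild type or of superficial-like to basal-like cells changed sign. Cell shares and highest to lowest ratios cannot be negative, so a change of sign does not apply to them. With 5 CPM added, the p63-KO to wild type log2 ratios were -7.20 (Krt5), -5.68 (Krt14) and -4.77 (Krt17). Without the 50 most abundant genes in the total they were -9.55 (Krt5), -7.46 (Krt14) and -1.13 (Krt15). With cells weighted equally they were -7.70 (Krt14) and -1.19 (Krt15), and with cells picked by Epcam or Cdh1 detection -6.86 (Krt14) and -1.34 (Krt15). Alternatives chosen after seeing the data follow. Cells with Xist and no Y-linked UMI gave -9.02 (Krt5), -7.00 (Krt14), -1.12 (Krt15) and -5.66 (Krt17). Cells with a Y-linked and no Xist UMI gave -9.85, -6.92, -1.05 and -4.96. In these p63-KO cells Krt5 was at 0 CPM (exact upper limit 0.369), so the p63-KO side of -9.85 is only the 1 CPM added. Without neuroendocrine-, ionocyte- and ciliated-like cells in either library the ratios were -9.45 (Krt5), -0.92 (Krt15) and -5.30 (Krt17). Krt15 was then less than 2-fold lower.

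The superficial-like to basal-like log2 ratios over score ranges were -1.83 (Krt5), -4.88 (Krt14), 0.40 (Krt15) and -2.35 (Krt17), and with 5 CPM added -4.84 (Krt14) and -3.98 (Krt17). For Krt15 it was 0.59 with Krt genes allowed in clustering, 0.55 at resolution 1 and 0.67 with cells weighted equally. The highest to lowest p63-KO subcluster ratio was 7.06 (Krt15) and 4.05 (Krt17) at resolution 1, and 6.83 (Krt15) with cells weighted equally.

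Shares of wild-type cells thinned to 5000 UMIs were 88.9% (Krt5), 56.3% (Krt14), 99.96% (Krt15), 59.8% (Krt17) and 61.9% (Krt14 among cells with Krt5). Unthinned they were 94.0%, 67.0%, 99.98%, 71.7% and 70.5%, and at 2 or more UMIs 47.5%, 17.5%, 99.5%, 15.4% and 23.9%. For Krt15 in p63-KO they were 80.7%, 89.5% and 72.9%.

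These cell shares therefore depend on depth. Counting intervals do not cover differences between animals, of which the libraries give no measure. No paired analysis was possible because each group is 1 library.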

Other observations

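Both libraries held cells with Xist and no Y-linked UMI (3345 wild type, 914 p63-KO) and cells with a Y-linked and no Xist UMI (1462 and 395), so each library drew on embryos of both sexes. In wild type, Krt5 had 702 CPM in the Xist cells and 923 CPM in the Y-linked cells, Krt14 had 285 and 338 CPM, Krt17 had 288 and 288 CPM and Krt15 had 10581 and 10628 CPM. In p63-KO, Krt15 had 4881 and 5136 CPM. Layer make-up was not matched between these cells, and they are not replicates of a group.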
